A study of Homo sapiens with 3 samples.

Results

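Ribosomal protein S6, encoded by RPS6, and kinases named after it were read as a set of 9 genes. The data were H3K27ac CUT&Tag peak lists of A2780, a human ovarian carcinoma cell line. The set was picked by gene name, with earlier results of these data known. It holds RPS6, the S6 kinase genes RPS6KB1 and RPS6KB2, the RSK genes RPS6KA1, RPS6KA2, RPS6KA3 and RPS6KA6, and the MSK genes RPS6KA4 and RPS6KA5. RPS6KC1 and RPS6KL1, which share the name, are not in the set and are counted with related kinases further on. All 9 were found among the 19974 protein-coding genes of the RefSeq table on chromosomes 1 to 22 and X. For each gene, every peak over its span or within 20 kb of it was read. The BPP library was made with an H3K27ac antibody from cells given the BPP peptide, which in the series design competes at the phosphorylation site of BIN2. The CTR library is the control, made with an antibody against the same mark, and the treatment of its cells was not stated in the labels. The IgG library of the same cell line measures background with a non-specific antibody. Each group had 1 library, so no difference has a replicate check and none was tested.

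In CUT&Tag a transposase cuts the DNA next to the bound antibody, so the peaks mark places where lysine 27 of histone H3 is acetylated, as it is at active promoters and enhancers. The lists held 17841 BPP, 14836 CTR and 7701 IgG peaks. The files hold no read depth, so a peak in 1 list only is a statement about that list: a weaker peak at the same place may have missed the threshold of the caller. Fold, −log10 p and −log10 q are the authors' values per peak. They are placed within their own list as a percentile, and a difference in them between lists is not read as a change. Of 6 ovarian and epithelial markers, KRT8 and KRT18 had a peak within 1 kb of a gene end in both H3K27ac lists, while PAX8, WT1, EPCAM and MUC16 had none. The mesenchymal gene VIM had one in both lists and CDH2 in neither, and the blood cell genes PTPRC and CD3E had none in any list.

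S6 is a protein of the small ribosomal subunit whose C-terminal serines are phosphorylated when growth signals reach the cell. The kinases S6K1 and S6K2 are switched on by mTORC1 together with PDK1 and phosphorylate S6 along with factors of translation. The RSK kinases are switched on by ERK and also phosphorylate S6, and the MSK kinases, downstream of ERK and p38, act in the nucleus on histone H3 and CREB. In the ovary, phosphorylated S6 is a common readout of mTORC1 activity in oocytes and follicles. The series title names RPS6 phosphorylation. Peak lists report chromatin beside the genes and carry no measure of phosphorylation.

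Gene-end peaks, defined as peaks reaching within 1 kb of either end of the gene, were present at 4 of the 9 genes in BPP, 5 in CTR and none in IgG. RPS6, RPS6KB1, RPS6KA1 and RPS6KA4 had one in both H3K27ac lists, RPS6KA5 in CTR alone, and RPS6KB2, RPS6KA2, RPS6KA3 and RPS6KA6 in neither. For all protein-coding genes together the shares were 30.6% in BPP, 31.2% in CTR and 2.13% in IgG. The share with one in both H3K27ac lists was 23.6%, with 7.03% in BPP and not CTR, 7.57% in CTR and not BPP and 61.8% in neither. With windows of 500 bp RPS6KA1 was no longer counted in either list and RPS6KA4 no longer in CTR, and with a fold of at least 5 only RPS6 was counted in BPP and RPS6, RPS6KB1 and RPS6KA5 in CTR. Of all 19974 protein-coding genes, 500 bp left 5258 in BPP and 5664 in CTR, and a fold of at least 5 left 3088 and 3524. With 9 genes, a count of 0 in IgG allows a share of up to 33.3%. Strand and start sites came from the RefSeq promoter table, which listed 14 start sites for the 9 genes. The same 4 and 5 genes had a peak within 1 kb of an annotated start site, so each of these gene-end peaks lay at the 5′ end. In the table's 15812 protein-coding genes, start-site peaks were found at 32.3% for BPP, 33.9% for CTR and 1.61% for IgG, with 25.9% in both H3K27ac lists, 6.43% in BPP and not CTR, 8.08% in CTR and not BPP and 59.6% in neither.

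Counting the whole loci, 14 BPP, 9 CTR and 3 IgG peaks lay over the 9 genes or within 20 kb. At least 1 peak was found at 7 genes in BPP, 6 in CTR and 2 in IgG, beside 59.8%, 57.1% and 24.6% of all protein-coding genes. Both H3K27ac lists had a peak at 5 of the 9 genes, BPP alone at 2 (RPS6KB2 and RPS6KA2) and CTR alone at 1 (RPS6KA5), beside 50.2%, 9.57% and 6.92% of all protein-coding genes. The set had a median of 2 BPP peaks, 1 CTR peak and 0 IgG peaks per gene, beside 1, 1 and 0 for all protein-coding genes. Of the 14 BPP peaks, 4 lay at gene ends, 4 elsewhere inside the gene and 6 outside it. The CTR list had 5 at gene ends, 1 inside and 3 outside. All 3 IgG peaks lay inside RPS6KA2 or RPS6KA5, and none of the 23 H3K27ac peaks overlapped an IgG peak. The 23 peaks stand at 15 separate sites once overlapping BPP and CTR peaks are joined, and 0 of 15 sites allows a share of up to 20%. Over the whole lists 1.82% of BPP peaks and 2.32% of CTR peaks did so.

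**Figure D1:**
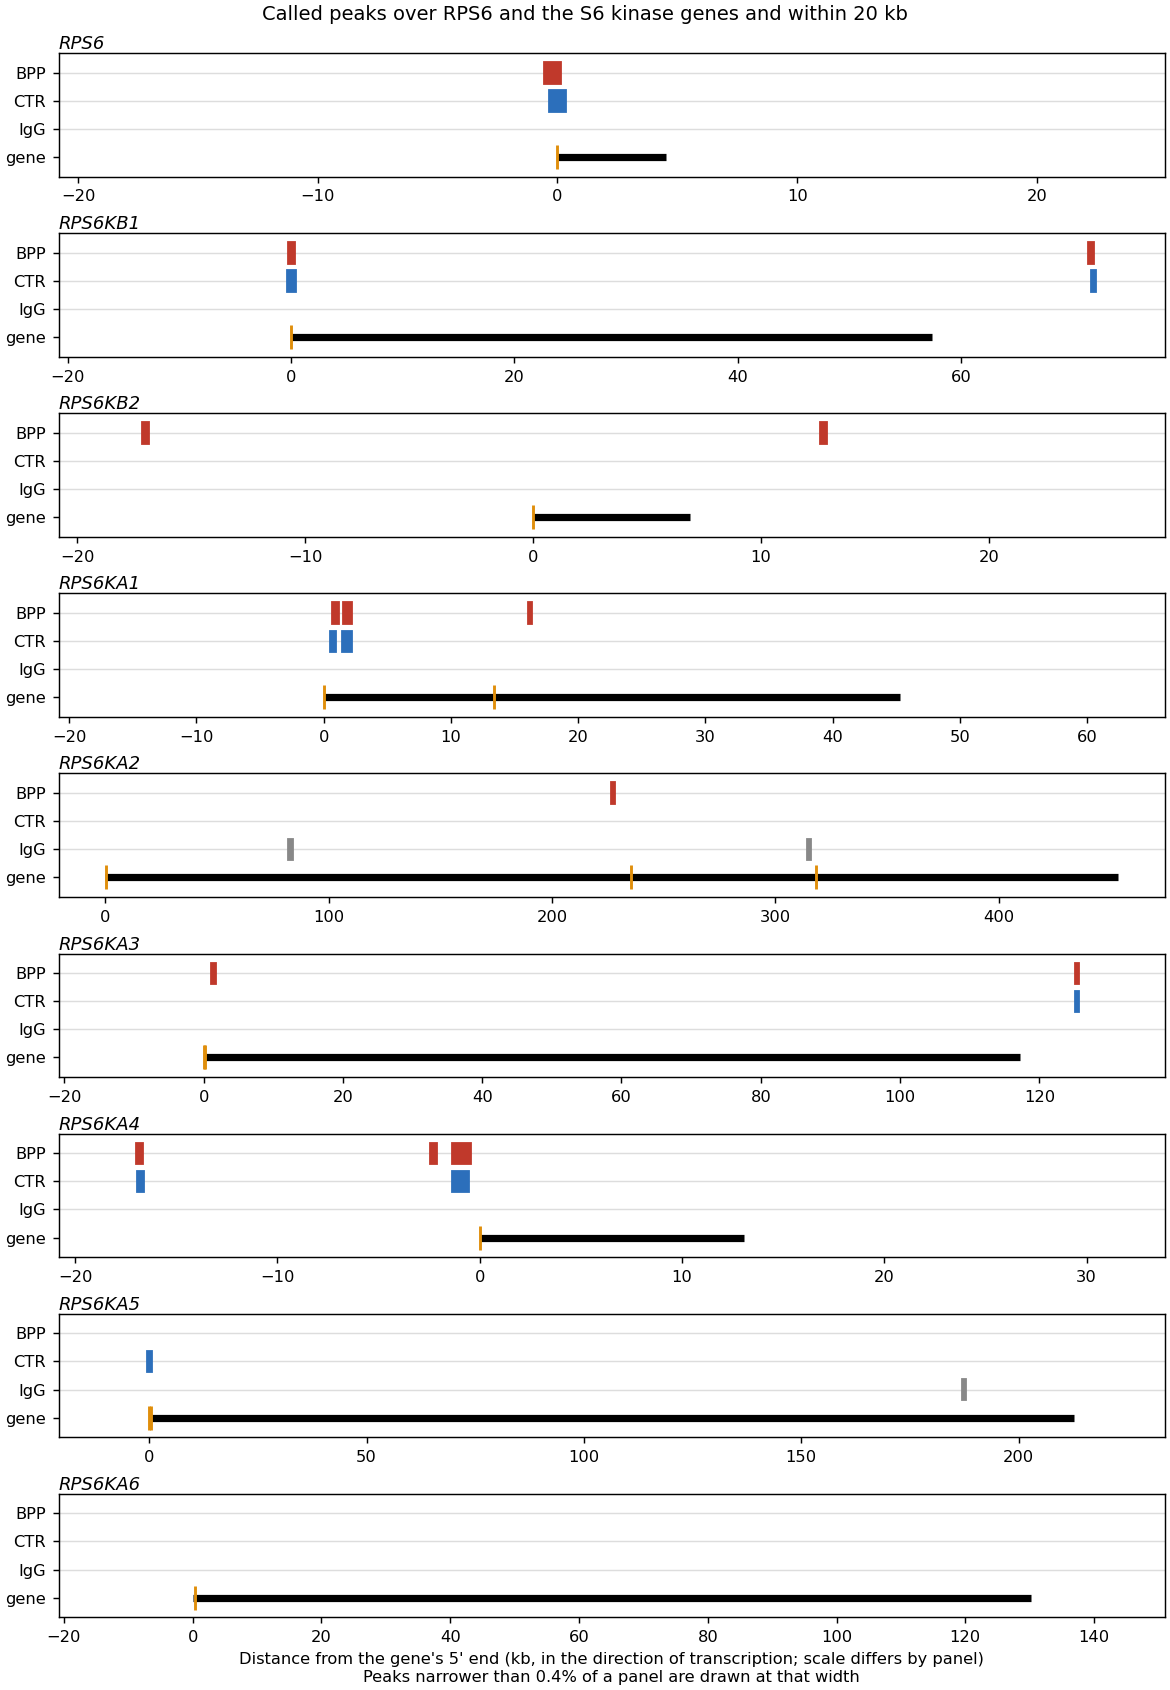
Peaks of the BPP, CTR and IgG lists over each of the 9 genes and within 20 kb, as coloured bars against distance from the gene's 5′ end in kb, with the gene as a black line and annotated start sites in orange. RPS6, RPS6KB1, RPS6KA1 and RPS6KA4 have BPP and CTR peaks within 1 kb of a start, RPS6KA5 has 1 CTR peak there, and RPS6KA6 has no peak.

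RPS6 lies on the minus strand of chromosome 9 (19375715 to 19380236, GRCh38) and had exactly 1 peak in each H3K27ac list, over its single annotated start site. The BPP peak (chromosome 9, 19380099 to 19380818) was 720 bp wide and reached fold 6.83 and −log10 q 16.9. It stood at percentile 88.6 of the BPP list by −log10 q and 90.3 by fold. The CTR peak (chromosome 9, 19379891 to 19380585) was 695 bp wide at fold 6.15 and −log10 q 11.6, at percentiles 76.02 and 81.3 of the CTR list. Both peaks therefore belonged to the stronger part of their own list, and BPP held no stronger peak among the 9 genes. They shared 487 bp, which was 67.6% of the BPP peak and 70.1% of the CTR peak. Relative to the start, where negative values are upstream, the summits lay at −326 bp in BPP and −154 bp in CTR, 172 bp apart. Over all 9011 overlapping BPP and CTR pairs the median distance between summits was 127 bp, with quartiles of 41 and 268 bp, so the RPS6 pair falls inside the usual range.

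The RPS6 promoter is printed because both peaks cover it in full. It runs from 250 bases before the start through the first 10 transcribed bases (RefSeq, GRCh38.p14, chr9:19380227-19380486, minus strand, 5′ to 3′), and capitals mark CGGAAG, the core bound by ETS factors, on either strand and the run of pyrimidines from the first transcribed base:
RPS6: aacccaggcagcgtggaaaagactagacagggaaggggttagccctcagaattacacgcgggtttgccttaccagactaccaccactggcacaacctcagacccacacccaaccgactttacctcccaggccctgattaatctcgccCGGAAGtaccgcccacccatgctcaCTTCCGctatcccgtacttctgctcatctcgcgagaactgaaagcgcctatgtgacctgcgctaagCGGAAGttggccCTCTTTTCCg
CGGAAG occurred 3 times, beginning 103, 78 and 12 bases before the start. At least 1 copy was present in 21.3% of the 22132 promoter windows of this length in the table, and 3 or more in 1.22%. The transcript began with 9 pyrimidines in a row, a length reached by 1.35% of annotated starts. Messenger RNAs of ribosomal proteins are known for such a terminal pyrimidine tract, through which mTORC1 controls their translation. Letters of a motif describe the sequence and do not show that a factor binds.

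RPS6 has many processed copies in the genome, which can take up reads that belong to the gene. None of the 26 RPS6 pseudogenes on these chromosomes had a peak over it or within 1 kb in any of the 3 lists. No share for other loci of their size was taken, and the handling of reads with several matches was not examined. The count therefore cannot show whether reads were misplaced. Of the 79 genes for cytosolic ribosomal proteins, 61 were marked at a gene end in BPP and 62 in CTR, and by −log10 q RPS6 ranked 21 in BPP and 28 in CTR. The median −log10 q among the marked genes was 11.6 in BPP and 10.3 in CTR, so RPS6, at 16.9 and 11.6, stood above it in both lists. Genes outside the set with gene-end peaks nearest to those of RPS6, by within-list percentile of −log10 q over the 2 H3K27ac libraries and with no IgG gene-end peak, were RPL22L1, SRSF1, ATP6V0E1, PNP and PIGB. They lay 0.193 to 0.787 percentile points away among 4575 genes ranked. The ranking took the best peak of each list at either gene end. For SRSF1 these were separate places on chromosome 17, 58006428 to 58007928 in BPP and 57988495 to 57989084 in CTR, unlike the overlapping pair of RPS6. RPL22L1, a paralogue of a ribosomal protein gene, was the nearest, with a −log10 q of 17.0 in BPP and 11.6 in CTR.

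RPS6KB1, which encodes S6K1, lies on the plus strand of chromosome 17 (59893121 to 59950574) and also had a peak over its start in both lists. Its BPP peak (chromosome 17, 59892847 to 59893493) was 647 bp wide at fold 4.08 and −log10 q 6.76, at percentile 46.5 of the list. The CTR peak (chromosome 17, 59892791 to 59893554) was 764 bp wide at fold 6.94 and −log10 q 22.4, at percentile 92.7. The S6K1 start thus held the strongest CTR peak of the set and a middling BPP peak. The BPP peak lay wholly within the CTR peak, and their summits, 160 bp downstream of the start in BPP and 128 bp in CTR, were 32 bp apart. With 1 library each and depth unknown, whether the mark differed there was not tested. Both peaks also cover the start of TUBD1, a tubulin gene transcribed the other way from 178 bp upstream, so the signal cannot be assigned to either gene.

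A further pair of peaks lay beyond the 3′ end of RPS6KB1. It was 13.9 kb away in BPP (chromosome 17, 59964517 to 59965054; fold 4.85) and 14.2 kb away in CTR (chromosome 17, 59964814 to 59965196; fold 4.74). Summits were 5 bp apart. This pair sits at the ends of RNFT1 and its divergent transcript RNFT1-DT, whose annotated start the CTR peak covers and the BPP peak misses by 42 bp.

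The RPS6KB1 promoter is printed for a repeat that stands out in it (RefSeq, GRCh38.p14, chr17:59892871-59893130, plus strand), with CGCATG, the core of the motif bound by NRF1, in capitals. Below it is the promoter of RPS6KB2, the other S6 kinase gene, which carries no peak (chr11:67428244-67428503, plus strand), with CGGAAG in capitals:
RPS6KB1: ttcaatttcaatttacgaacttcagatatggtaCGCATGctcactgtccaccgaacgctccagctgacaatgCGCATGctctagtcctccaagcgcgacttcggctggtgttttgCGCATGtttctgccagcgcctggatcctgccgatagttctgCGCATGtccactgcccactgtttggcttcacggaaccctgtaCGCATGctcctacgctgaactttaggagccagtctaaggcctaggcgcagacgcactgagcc
RPS6KB2: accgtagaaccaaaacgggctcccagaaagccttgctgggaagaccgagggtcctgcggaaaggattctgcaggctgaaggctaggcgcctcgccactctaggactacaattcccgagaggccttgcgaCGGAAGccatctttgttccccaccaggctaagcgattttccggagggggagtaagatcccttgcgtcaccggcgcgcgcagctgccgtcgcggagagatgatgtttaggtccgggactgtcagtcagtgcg
RPS6KB1 held 5 copies of CGCATG, all on the strand of the gene and spaced 39, 43, 41 and 42 bases apart. Counting both strands, 7.14% of the 22132 windows held at least 1 copy and 10 windows (0.0452%) held 5 or more. No other start site of the set held a copy. RPS6KB2 held 1 CGGAAG, 121 bases before its start.

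RPS6KB2, which encodes S6K2, lies on the plus strand of chromosome 11 (67428494 to 67435401) and had no peak over its span in any list. In BPP a peak of fold 2.95 and −log10 q 7.24 lay 5.67 kb past the 3′ end, inside CORO1B (chromosome 11, 67441074 to 67441381). Another BPP peak of fold 3.27 lay 16.8 kb upstream (chromosome 11, 67411364 to 67411662). CTR had no peak within 20 kb, and its nearest one lay 32.5 kb away. The S6K genes thus differ in these lists: RPS6KB1 had start-site peaks in both, and RPS6KB2 in neither.

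**Figure D2:**
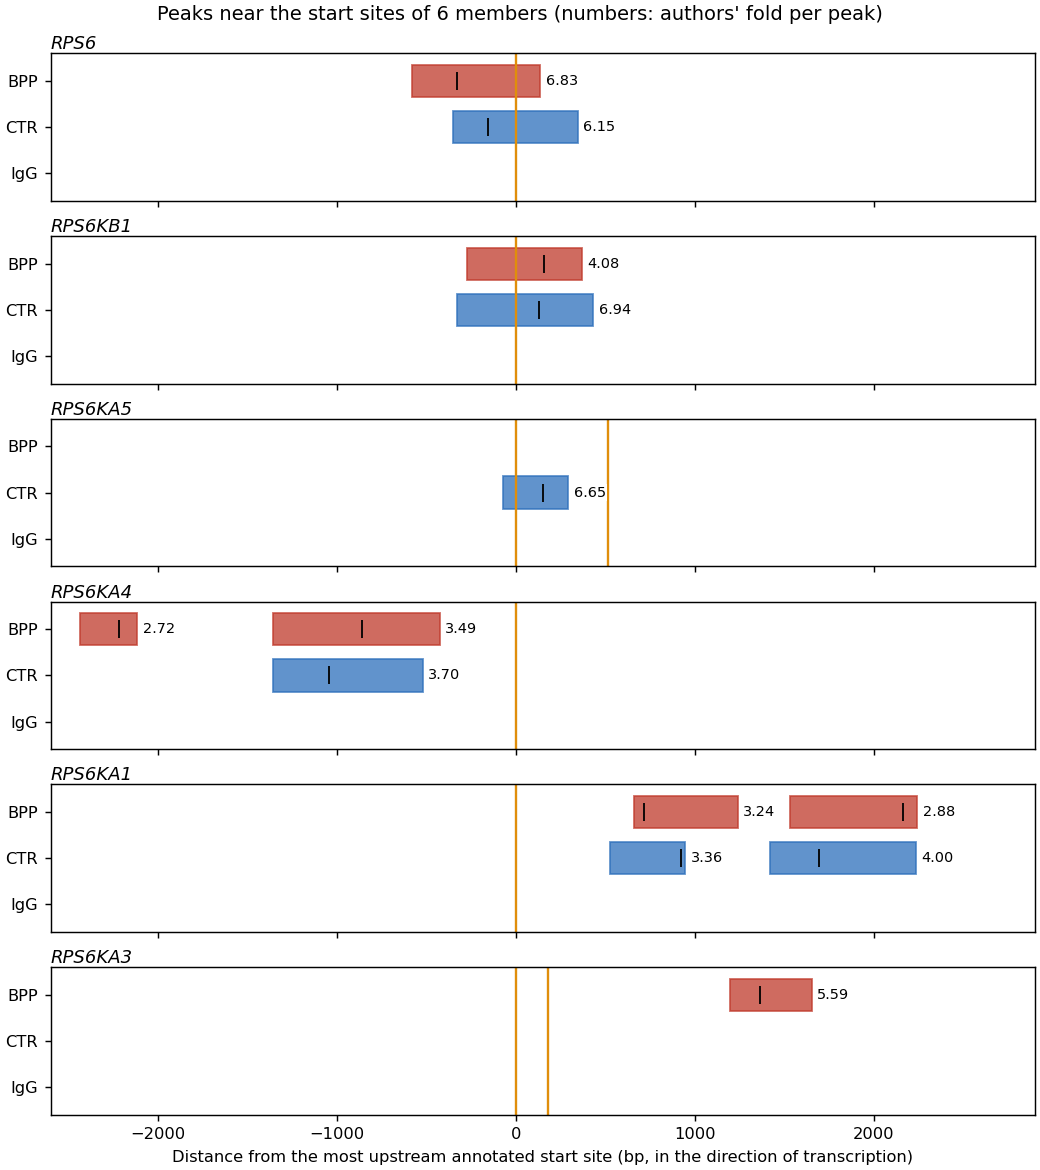
Peaks near annotated start sites (orange lines) of 6 genes, drawn to scale in bp along the direction of transcription, with the authors' fold beside each peak and the summit as a black tick. BPP and CTR peaks span the start of RPS6 and RPS6KB1 and a CTR peak that of RPS6KA5, while the peaks of RPS6KA4, RPS6KA1 and RPS6KA3 lie to one side.

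The MSK genes differed from each other. RPS6KA5, which encodes MSK1, lies on the minus strand of chromosome 14 (90847861 to 91060641) and had a CTR peak over its upstream start (chromosome 14, 91060347 to 91060711). This peak was 365 bp wide at fold 6.65 and −log10 q 10.9, at percentile 73.6 of the CTR list and 86.7 by fold. BPP had no peak over the gene or within 20 kb, and its nearest peak lay 42.5 kb away (chromosome 14, 90804877 to 90805313). RPS6KA5 was the single gene of the set with a gene-end peak in 1 H3K27ac list only. The CTR peak begins 14 bp from the start of DGLUCY on the opposite strand, so it cannot be assigned to 1 of the 2 genes. An IgG peak of fold 3.58 and −log10 q 2.20 lay deep inside RPS6KA5, 187 kb from the nearest start site. The upstream promoter of RPS6KA5, of which the CTR peak covers 80 of 260 bases, is printed with CCAAT and GGGCGG, the boxes bound by NF-Y and SP factors, in capitals (RefSeq, GRCh38.p14, chr14:91060632-91060891, minus strand):
RPS6KA5: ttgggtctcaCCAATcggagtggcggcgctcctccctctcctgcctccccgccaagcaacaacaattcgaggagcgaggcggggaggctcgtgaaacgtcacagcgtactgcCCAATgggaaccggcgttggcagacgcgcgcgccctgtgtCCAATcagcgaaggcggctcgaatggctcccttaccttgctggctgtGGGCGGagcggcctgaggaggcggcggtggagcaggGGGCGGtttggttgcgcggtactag
It held 3 copies of CCAAT, a number reached by 3.42% of promoter windows, and 2 of GGGCGG, reached by 32.4%.

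RPS6KA4, which encodes MSK2, lies on the plus strand of chromosome 11 (64359162 to 64372215), and its peaks stopped short of the start. The BPP peak (chromosome 11, 64357806 to 64358738) was 933 bp wide at fold 3.49 and −log10 q 11.1, and ended 424 bp upstream. The CTR peak (chromosome 11, 64357806 to 64358642) was 837 bp wide at fold 3.705 and −log10 q 9.52, and ended 520 bp upstream. They began at the same base and shared 837 bp. By −log10 q they stood at percentiles 75.9 in BPP and 67.3 in CTR, but by fold at 23.8 and 22.6, so these are broad peaks of modest height. They fill part of the interval between RPS6KA4 and CCDC88B. Both also reach within 1 kb of the CCDC88B end at 64357534, so they cannot be assigned to either gene. BPP also had a peak of fold 2.72 inside CCDC88B, 2.12 kb upstream (chromosome 11, 64356727 to 64357047), that had no CTR counterpart. Both lists had a peak 16.7 kb upstream in BPP and 16.6 kb upstream in CTR, with folds of 3.74 and 3.87.

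Of the RSK genes, only RPS6KA1 had H3K27ac peaks within 1 kb of an annotated start. RPS6KA1, which encodes RSK1, lies on the plus strand of chromosome 1 (26529761 to 26575025) and had a pair of peaks inside its 5′ end in each list. In BPP they had folds of 3.24 (chromosome 1, 26530422 to 26531003) and 2.88 (chromosome 1, 26531294 to 26532005), with −log10 q of 5.05 and 3.88. In CTR the folds were 3.36 (chromosome 1, 26530290 to 26530709) and 4.00 (chromosome 1, 26531182 to 26531996), with −log10 q of 4.34 and 7.03. All 4 lay below the median of their list, at percentiles from 7.2 to 48.5, and none covered the start of RPS6KA1. The nearest peak began 661 bp downstream of it in BPP and 529 bp in CTR. The more distant peak of each list covers the start of LOC124903884, a long noncoding RNA on the opposite strand, 1637 bp downstream of the RPS6KA1 start. BPP had another peak inside the gene, 2.69 kb past its downstream start site, at fold 2.94 and −log10 q 3.90.

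RPS6KA3, which encodes RSK2, lies on the minus strand of chromosome X (20149911 to 20267097) and had a peak near its start in BPP only. That peak (chromosome X, 20265434 to 20265891) reached fold 5.59 and −log10 q 6.66, and began 1018 bp downstream of the nearer annotated start, just outside the 1 kb window. Its percentile was 45.5 by −log10 q and 78.1 by fold. The other peaks near RPS6KA3 lay past its 3′ end at EIF1AX, a translation initiation factor gene, with folds of 4.38 in BPP and 5.31 in CTR. The CTR peak covers the start of EIF1AX and the BPP peak ends 33 bp from it.

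RPS6KA2, which encodes RSK3 and spans 453 kb of chromosome 6 on the minus strand (166409364 to 166862773), had no H3K27ac peak within 1 kb of any of its 3 annotated starts. Its single BPP peak (chromosome 6, 166635339 to 166635851) lay 8.09 kb upstream of the middle start. With a −log10 q of 6.97 it stood at percentile 48.6 of the BPP list by −log10 q and 83.6 by fold. CTR had no peak over the gene, and its nearest one was 26.5 kb past the 3′ end. IgG had 2 peaks inside RPS6KA2, with folds of 3.58 and 4.17 and −log10 q of 2.20 and 2.51, neither overlapping the BPP peak. RPS6KA6, which encodes RSK4 on chromosome X (84058346 to 84188499), had no peak in any list. The nearest H3K27ac peaks of both lists lay 313 kb away at the same place, with folds of 9.04 in BPP and 5.17 in CTR. The whole locus was thus without called H3K27ac in these libraries, as was true within 20 kb of 33.3% of protein-coding genes.

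**Figure D3:**
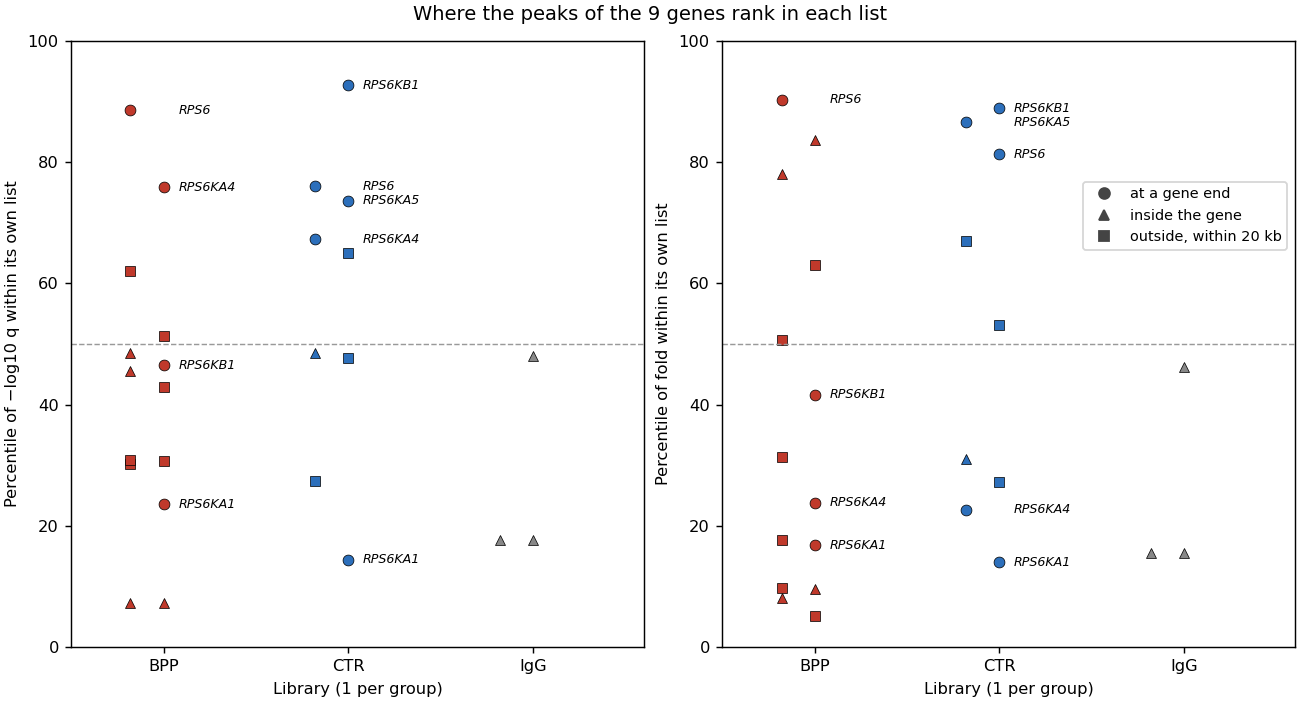
Percentile of each peak of the 9 genes within its own list, by −log10 q (left) and by fold (right), for the BPP, CTR and IgG libraries; circles are gene-end peaks, triangles peaks elsewhere inside a gene, squares peaks outside within 20 kb, and the dashed line marks the middle of the list. RPS6 is the highest circle in BPP and RPS6KB1 in CTR, and the 3 IgG peaks lie under the line.

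Set side by side, the BPP peaks of the set ranged in −log10 q from 3.88 to 16.9 with a median percentile of 44.2 in their list. The CTR peaks ranged from 4.34 to 22.4 with a median percentile of 65.1. Of the 14 BPP peaks, 8 overlapped a CTR peak (57.1%), where 50% of all BPP peaks did. Of the 9 CTR peaks, 8 overlapped a BPP peak (88.9%), where 59.6% of all CTR peaks did. The 6 BPP peaks without overlap were the pair near RPS6KB2, the most downstream one in RPS6KA1, those in RPS6KA2 and RPS6KA3 and the one near CCDC88B. None of them reached within 1 kb of an annotated start of the set. The CTR peak without overlap was the one over the start of RPS6KA5.

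Of the 14 promoter windows of the set, 4 were touched by an H3K27ac peak and 10 were not, and the ranges of G+C content of these groups overlapped. G+C content was 56.5% at RPS6 and 54.6% at RPS6KB1, whose windows are covered in full by peaks of both lists. It was 66.2% and 81.2% in the windows of the upstream and downstream starts of RPS6KA5. The single CTR peak there covers 80 and 28 of their 260 bases and does not reach the downstream start itself. Windows touched by neither H3K27ac list ranged from 43.5% at the most downstream start of RPS6KA2 to 78.8% at the upstream start of RPS6KA1. The median over all 22132 windows was 61.9%. Observed over expected CpG was 0.765 at RPS6, 0.895 at RPS6KB1, and 0.924 and 0.905 at the upstream and downstream starts of RPS6KA5, all above the median of 0.719 over all windows. The 10 untouched windows ran from 0.09 at the downstream start of RPS6KA1 to 1.033 at the downstream start of RPS6KA3, with 5 below that median and 5 above it. CGGAAG was found at RPS6, RPS6KB2 and one start of RPS6KA3, and TATAAA, the TATA box, which 9.15% of all windows hold, at none of the 14. These are counts of letters on both strands and show nothing about the factors.

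**Figure D4:**
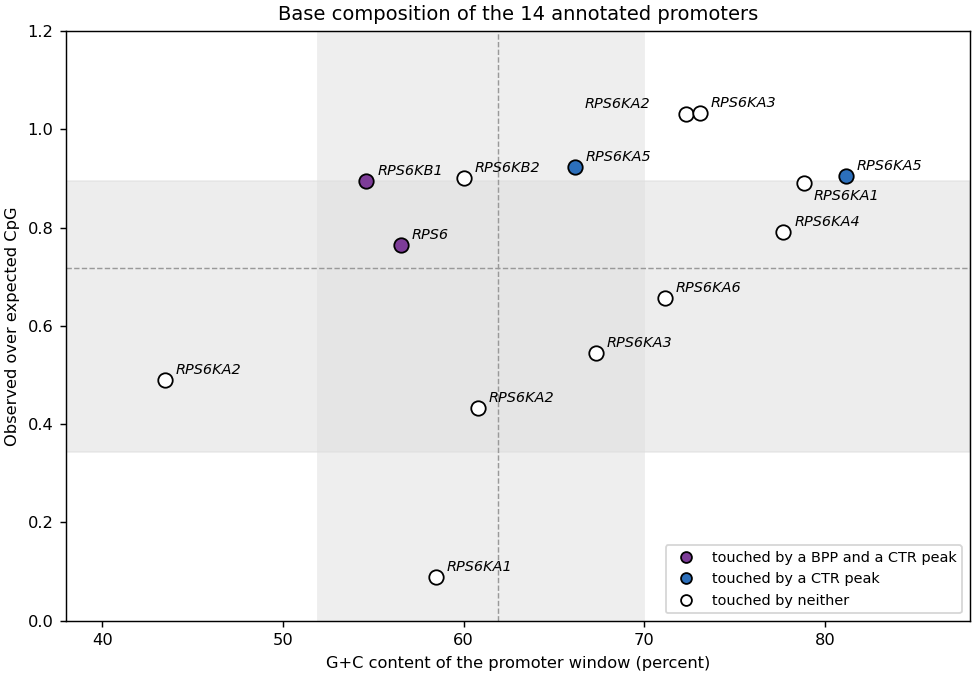
G+C content in percent (horizontal axis) and observed over expected CpG (vertical axis) of the 14 annotated promoter windows of the set, from 250 bases before to 10 bases into the transcript. Grey bands give the middle 50% and dashed lines the median of all 22132 windows, and filled points are windows touched by peaks. All 4 filled points lie above the median CpG value, and the open points lie on both sides of it.

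Genes around the S6 kinases were read in the same way from a list of 76 genes in 7 roles. A gene-end peak was present at 40 of them in BPP (52.6%) and 41 in CTR (53.9%), beside 30.6% and 31.2% of all protein-coding genes, and at 2 in IgG. Both H3K27ac lists had one at 28 genes, BPP alone at 12 and CTR alone at 13, and 23 had neither. As shares these were 36.8%, 15.8%, 17.1% and 30.3%, beside 23.6%, 7.03%, 7.57% and 61.8% of all protein-coding genes. A gene counted in both lists need not have peaks that overlap. The strongest gene-end peaks of PPP1CB lay apart on chromosome 2, at 28751168 to 28751521 in BPP and 28752102 to 28752505 in CTR. Those of BAD lay apart on chromosome 11, at 64270163 to 64271819 in BPP and 64268673 to 64269079 in CTR. The IgG peaks were at ATF1 and AKT2, and ATF1 also had one in both H3K27ac lists. The list was drawn up with earlier results of these data known, so its share is a description. Folds of its genes are given as deposited, without their place in the list, and a low fold can go with a high −log10 q. MAPK11, at fold 3.298 in BPP, stood at percentile 90.9 of that list by −log10 q.

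Of 18 genes of mTORC1 and its regulators, 6 were marked in both lists, 4 in BPP only and 5 in CTR only, or 33.3%, 22.2% and 27.8% beside the 23.6%, 7.03% and 7.57% of all genes. AKT1S1, which encodes the mTORC1 inhibitor PRAS40, had folds of 5.24 in BPP and 4.40 in CTR, and TSC1, a subunit of the complex that restrains RHEB, 6.98 and 6.64. LAMTOR4 (fold 4.21) and LAMTOR2 (fold 3.05), subunits of the Ragulator scaffold on lysosomes, had BPP peaks only. RRAGB, a RAG GTPase (fold 8.68), and DEPTOR, an mTOR inhibitor (fold 7.25), had CTR peaks only. Of 11 genes of PI3K, PDK1 and AKT, none was marked in both lists, 3 were in BPP only and 2 in CTR only. The shares were 0%, 27.3% and 18.2%, beside 23.6%, 7.03% and 7.57% of all genes, and counted per list the role had 27.3% in BPP and 18.2% in CTR, beside 30.6% and 31.2%. AKT1 (fold 4.87) and PDPK1, the gene of PDK1 (fold 3.17), were on the BPP side, and the PI3K subunit genes PIK3R2 (fold 4.12) and PIK3CB (fold 5.29) on the CTR side.

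Of 11 ERK and p38 pathway kinases upstream of RSK and MSK, 6 were marked in both lists, none in BPP only and 2 in CTR only, which is 54.5%, 0% and 18.2% beside 23.6%, 7.03% and 7.57% of all genes. The p38 genes MAPK14 and MAPK11 had folds of 8.01 and 3.298 in BPP, and 6.43 and 3.17 in CTR. BRAF (fold 6.71) and MAP2K1, which encodes MEK1 (fold 4.40), had CTR peaks only. Of 8 phosphatase genes, 3 were marked in both lists and 1, PPP2CB, in CTR only, making 37.5% and 12.5% where all genes had 23.6% and 7.57%. PPP2R1A, the scaffold of protein phosphatase 2A, had folds of 7.13 in BPP and 7.05 in CTR, and PPP2CA, its catalytic subunit, 5.01 and 7.84.

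Of 11 substrates of S6K other than RPS6, 6 were marked in both lists, 2 in BPP only and 1 in CTR only, or 54.5%, 18.2% and 9.09% against 23.6%, 7.03% and 7.57% of all genes. POLDIP3, which encodes SKAR, had folds of 5.92 in BPP and 7.33 in CTR, and GSK3B 6.06 and 5.57. GSK3A (fold 3.33) and CAD, the enzyme that starts pyrimidine synthesis (fold 4.25), had BPP peaks only, and EEF2K, the kinase of elongation factor 2 that S6K inhibits (fold 5.32), a CTR peak only. Of 12 substrates of RSK and MSK, 6 were marked in both lists, 1 in BPP only, which was SRF (fold 3.19), and 1 in CTR only, which was CREB1 (fold 5.58). That is 50% in both, against 23.6% of all genes, while 8.33% in either list alone is near the 7.03% and 7.57% of all genes. FOS had folds of 5.34 in BPP and 9.22 in CTR, and ATF1 6.91 and 4.84. Of 5 related kinase genes, RPS6KC1 was marked in both lists (folds 4.75 in BPP and 6.28 in CTR), SGK2 (fold 3.92) and RPS6KL1 (fold 2.91) in BPP only and SGK3 (fold 4.03) in CTR only. By −log10 q the peaks found in 1 list stood low in it, at percentiles 18.1 for SGK2, 3.9 for RPS6KL1 and 15.0 for SGK3. RPS6KC1 stood at 46.9 in BPP and 83.0 in CTR. The shares of 20%, 40% and 20% rest on 5 genes, beside 23.6%, 7.03% and 7.57% of all genes.

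**Figure D5:**
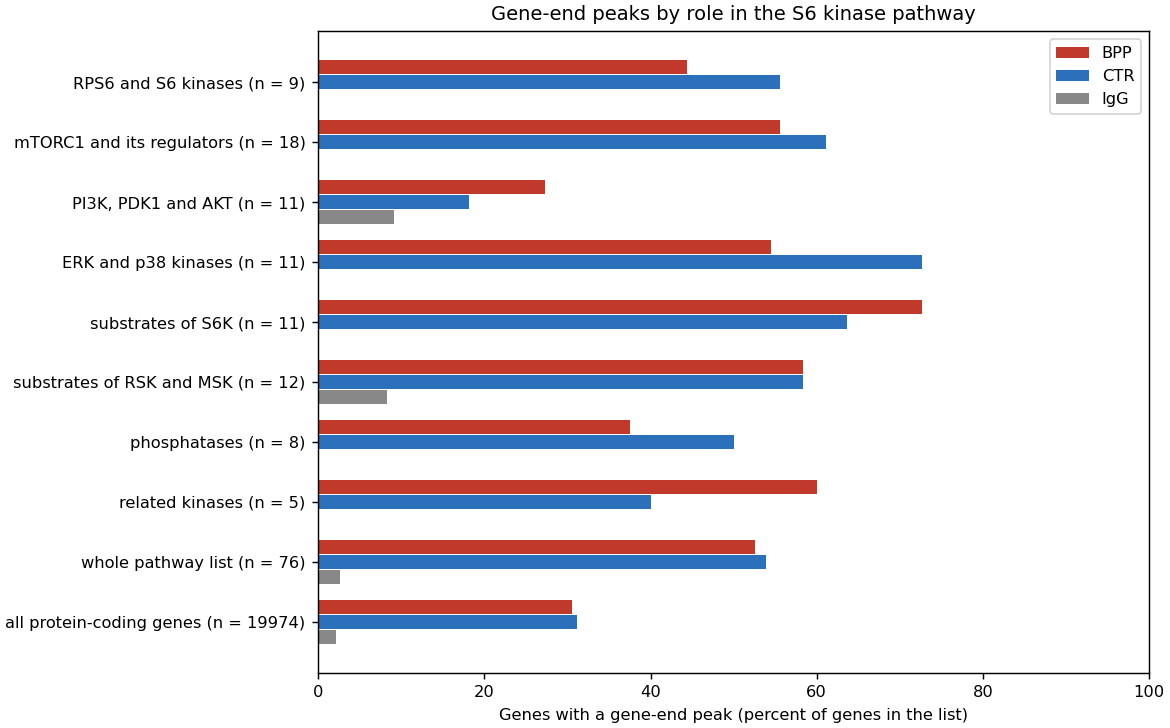
Percent of genes with a gene-end peak in the BPP, CTR and IgG lists, for the 9 genes of the set, the 7 roles of the pathway list, the whole list of 76 and all 19974 protein-coding genes. Shares of short lists move by many points with 1 gene; the whole list stands at 52.6% in BPP and 53.9% in CTR, against 30.6% and 31.2% of all genes.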

How the data were processed

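The tools named in the submitters' processing notes are fastp, Bowtie2 2.4.1 and deepTools 3.3.0, and the build is GRCh38.p13 (hg38). How peaks were called, and whether IgG entered the calling, is not given in the sources used here. For each library, 1 deposited peak list was read. Its score is the −log10 p multiplied by 10 and shortened to a whole number, its fold is a ratio over a background not described, and the deposited −log10 p-values and −log10 q-values come from the caller. No −log10 p lay below 5. Groups came from the sample titles.

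Chromosomes 1 to 22 and X were used, which left out 28 BPP, 37 CTR and 14 IgG peaks. Peaks overlapped from 1 bp. Genes, strands, start sites and promoter sequences came from RefSeq tables of GRCh38.p14, which shares chromosome coordinates with GRCh38.p13. Start sites were listed for 15812 of 19974 protein-coding genes. Exons and introns were not separated. Coordinates count from 1. All tables were used without tests, since each group had 1 library. Limits for a count of 0 use 3 counts and cover counting error only.

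The 9 genes, the pathway list and the genes named from it (by role, up to 2 per pattern with the highest −log10 q) were chosen with earlier results of these data known, and the motifs after the sequences were seen. Python 3.11.15, numpy 2.4.6, pandas 2.3.3 and matplotlib 3.10.9 were used. Overlaps were checked against bedtools 2.31.1 and on simulated peaks.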

Additional observations from a re-analysis of the deposited data

How the results depend on the processing

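No paired analysis was possible because each group has 1 library. Of 120 alternative counts, 73 stayed within 1.5 times the reported one and 47 did not. The tally enters gene-end and start-site counts of the set separately, although these were the same in every setting. It also includes IgG counts of the set with no peak or overlap to lose, which filters and a narrower window could not change. The tally is therefore not a measure of how stable the results are.

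With windows of 500 bp, gene-end peaks were at 3 genes of the set in CTR, 2 in both H3K27ac lists and 1 in BPP only: RPS6KA1 was lost from both lists and RPS6KA4 from CTR. Of all 19974 protein-coding genes, 5664, 4106 and 1152 were counted there. With 2 kb, 1 gene was in BPP only (RPS6KA3), beside 1693 of the 19974. With −log10 q of at least 5, 1 gene was in BPP only (RPS6KA1), beside 1376. With fold of at least 5, counts were 1 in BPP (RPS6), 3 in CTR, 1 in both and 2 in CTR only (RPS6KB1 and RPS6KA5). All genes had 3088, 3524, 2256 and 1268. With the 5000 top peaks of each list, 2 genes were marked in BPP, 2 in both and 2 in CTR only, beside 2924, 2046 and 1167 of all genes. Start-site counts of the set were the same as its gene-end counts in each of these settings. RPS6 was marked in both lists and RPS6KA5 in CTR only under all 5 alternatives, and RPS6KB2, RPS6KA2 and RPS6KA6 were marked in none. The absences could not have come out otherwise. The filters and the 500 bp window only remove peaks, and the lists without a mark held no peak within 2 kb of these gene ends or starts.

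For the 76 pathway genes, fold of at least 5 left 14 in BPP, 22 in CTR, 11 in both lists, 3 in BPP alone and 11 in CTR alone. All 19974 protein-coding genes had 3088, 3524, 2256, 832 and 1268. The 5000 top peaks left 14, 22, 9, 5 and 13 of the 76, where all 19974 genes had 2924, 3213, 2046, 878 and 1167. In both settings the BPP share of the pathway genes lay nearer to that of all genes than in the main setting. The CTR share stayed further above it than the BPP share did. IgG counts of the pathway genes were 1 with windows of 500 bp and 0 with −log10 q or fold of at least 5.

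Peaks within 50 kb numbered 27 in BPP, 13 in CTR and 4 in IgG. Just beyond the 20 kb limit lay a BPP peak 21.9 kb from RPS6 and one 21970 bp from RPS6KB2. Fold of at least 5 left 3 BPP, 4 CTR and 0 IgG peaks within 20 kb, with 1 overlapping pair. The 5000 top peaks left 2, 4 and 1, with 2 pairs. With −log10 q of at least 5, IgG had 0. Which alternative treats the lists alike is unknown without depth.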
